A study of Mus musculus with 2 samples.

Results

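The genes described here were 10 cytokine genes made by T helper type 1 (Th1) cells, namely Ifng, Il2, Tnf, Lta, Ltb, Csf2, Il3, Il10, Il21 and Tnfsf11. They were listed by name and not by a cut on their values, though with earlier results of these data known. All 10 were found among the 24421 genes of the deposited tables. RNA sequencing was done on Th1 cells differentiated in culture from naïve CD4 T cells of C57BL/6J mice, 1 sample with intact Chi3l1 (genotype Chi3l1+/+, called WT) and 1 sample with Chi3l1 disrupted (Chi3l1-/-, called Chi3l1 KO). Chi3l1 encodes chitinase 3-like 1, and the disruption is in the germline, so every cell of these mice carries it. Both cultures were stimulated through CD3 and CD28 and skewed with IL-12, IL-2 and an antibody against IL-4, and the sources used here do not say on which day of culture the sequenced cells were taken or how many mice gave them. The comparison was designed to ask how Th1 cells of Chi3l1 KO mice differ from those of WT mice.

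The targeted gene went against its label. Chi3l1 is listed under its mouse symbol Chil1, and its deposited log2 value was 0.942 in the library labelled WT and 6.656 in the library labelled Chi3l1 KO, which are 1 read and 103 reads. The table gives 1 value per gene and cannot show which exons these reads came from. The reason was not tested. The libraries are called by their labels throughout, and every direction given below, which is the library labelled Chi3l1 KO against the library labelled WT, depends on those labels.

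Th1 cells protect against intracellular microbes by secreting cytokines, small proteins that act on receptors of neighbouring cells. IFNγ, encoded by Ifng, is their signature product and arms macrophages, while IL-2 drives the growth of the T cells themselves. Cytokine genes are switched on after antigen receptor signalling by factors such as NFAT and AP-1, and many of their messages are short-lived because proteins bind AU-rich stretches in the 3′ untranslated region (3′ UTR).

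Values are log2 of a normalized count plus 1, as deposited, and a difference is the value of the library labelled Chi3l1 KO minus that of the library labelled WT. The reads behind each value were rebuilt from the even steps of the low values and summed to 70638495 in the library labelled WT and 62958938 in the library labelled Chi3l1 KO. With 1 sample per genotype there is no replicate check and no test. The 95% intervals come from the rebuilt reads (exact Poisson for a level, exact binomial for a ratio) and cover counting error only, not the spread between mice or cultures. Across genes a 2-fold difference was common, since 4.7% of all genes were at least 2-fold higher and 5.81% at least 2-fold lower in the library labelled Chi3l1 KO. It was less common among highly expressed genes, so each cytokine is set beside genes of its own range of level.

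Both libraries expressed T cell and Th1 markers. All 8 T cell markers (Cd3d, Cd3e, Cd3g, Cd4, Cd2, Cd5, Cd28 and Lck) had values from 11.9 to 16.5 in both libraries, and none differed by 2-fold. Tbx21, which encodes the Th1 master regulator T-bet, was 13.980 in the library labelled WT and 13.715 in the library labelled Chi3l1 KO. Of the 8 Th1 markers, 4 had a higher and 4 a lower value in the library labelled Chi3l1 KO. At 2-fold 2 were lower and 0 higher, beside 5.81% and 4.7% of all genes. The 2 were Cxcr3 (log2 difference −1.23) and Ccl5 (−1.36). In their range of level, from 8 to under 10, 2.51% of genes were at least 2-fold lower. The highest of the 8 differences was that of Il18r1 (0.62). The Th2 cytokine gene Il4 had 1 read and 9 reads, and the Th17 cytokine gene Il17a had none in either library.

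Ifng, Il10 and Il3 had the largest differences, of similar size, and Ifng had by far the most reads of them. Its value was 11.721 (3483 reads) in the library labelled WT and 13.044 (8728 reads) in the library labelled Chi3l1 KO, a log2 difference of 1.32 and a ratio of 2.50 (95% counting interval 2.41 to 2.60). Such a difference was uncommon at this level of expression. Of the 2062 genes whose higher value lay from 12 to under 14, 6 (0.291%) were at least 2-fold higher and 10 (0.485%) at least 2-fold lower. Of the 9376 genes that reached a log2 value of 8 in either library, Ifng ranked 30 from the most positive difference.

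The TNF cluster genes did not share this direction. Tnf, Lta and Ltb encode TNF, lymphotoxin α and lymphotoxin β, related ligands that act in inflammation and in building lymphoid tissue. Tnf was 13.077 in the library labelled WT and 12.879 in the library labelled Chi3l1 KO (difference −0.20, ratio 0.872, interval 0.845 to 0.899). Lta was 13.550 and 13.345 (−0.21, ratio 0.868, interval 0.845 to 0.890). Ltb, whose product anchors lymphotoxin α at the cell surface, was 13.729 and 13.097 (−0.63, ratio 0.645, interval 0.628 to 0.663). All 3 were lower in the library labelled Chi3l1 KO, none by 2-fold, and the reads behind them ran from 7785 to 14012, so counting error was small beside these differences.

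The size of the Ltb difference changed when a trend with base composition was subtracted, and the origin of that trend was not tested. Over 8579 genes with values of 8 or more in both libraries, transcripts richer in GC had lower log2 differences, and the Ltb transcript is GC-rich (61.0%). With this trend subtracted the difference of Ltb was −0.18, that of Lta −0.01 and that of Tnf −0.12, while that of Ifng, with 43.5% GC, was 1.13. Genes often used as references also differed by amounts of this size, from Gapdh at −0.61 to Hprt at 0.23 with Actb at −0.12.

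IL-2 and IL-21 are close relatives that signal through the shared receptor chain γc, encoded by Il2rg. Il2 had nearly the same value in both libraries, 8.908 (495 reads) and 8.979 (521 reads), and its ratio of 1.05 had a counting interval of 0.927 to 1.19. It was the only one of the 10 genes whose interval included equal levels, and its sign turned with the GC trend removed (−0.16). Recombinant IL-2 was present in both cultures. Il21, whose product helps B cells and CD8 T cells, was 9.349 (672 reads) and 9.859 (959 reads), a ratio of 1.42 (1.29 to 1.57).

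Tnfsf11 encodes RANKL, the TNF family ligand that drives osteoclast formation and dendritic cell survival. It was 8.017 (266 reads) in the library labelled WT and 7.682 (211 reads) in the library labelled Chi3l1 KO, a ratio of 0.792 (0.658 to 0.952). None of Il2, Il21 and Tnfsf11 reached 2-fold, and in their range of level, from 8 to under 10, 1.78% of 3027 genes were at least 2-fold higher and 2.51% at least 2-fold lower.

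Csf2 and Il3 are neighbours that encode GM-CSF and IL-3, growth factors of myeloid cells. Il3 was 6.044 (67 reads) in the library labelled WT and 7.294 (161 reads) in the library labelled Chi3l1 KO, a log2 difference of 1.25 and a ratio of 2.40 (1.79 to 3.24). Csf2 was 6.366 (84 reads) and 6.954 (127 reads), a log2 difference of 0.59 and a ratio of 1.51 (1.14 to 2.01). Both were higher in the library labelled Chi3l1 KO, only Il3 past 2-fold. At their level, from 6 to under 8, 6.6% of 2120 genes were at least 2-fold higher and 8.02% at least 2-fold lower, so a difference such as that of Il3 was far more common there than one such as that of Ifng at its own level.

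Il10 encodes IL-10, a cytokine that restrains inflammation and that Th1 cells can make under strong stimulation. It had the lowest value of the 10 genes, 4.541 (23 reads) in the library labelled WT and 5.837 (58 reads) in the library labelled Chi3l1 KO. The log2 difference was 1.30 and the ratio 2.52, close to that of Ifng, but with a wide counting interval of 1.53 to 4.28. In this range of level, from 4 to under 6, 14.4% of 1779 genes were at least 2-fold higher and 19.3% at least 2-fold lower, so the 2-fold difference of Il10 is near the background.

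**Figure D1:**
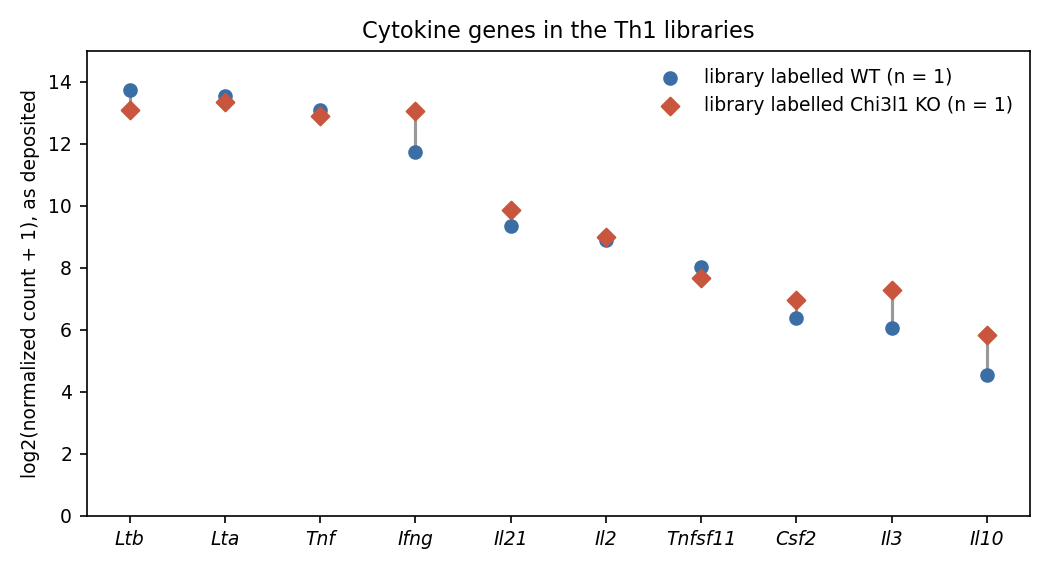
Deposited values of the 10 cytokine genes, as log2 of a normalized count plus 1, in the library labelled WT (blue circles) and the library labelled Chi3l1 KO (red diamonds), n = 1 each, in order of the value in the library labelled WT. Ifng goes from 11.721 to 13.044, while Ltb goes from 13.729 to 13.097 and the points of Il2 nearly coincide at 8.908 and 8.979.

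Over the 10 genes, 6 had a higher and 4 a lower value in the library labelled Chi3l1 KO. The 4 lower genes were those of the TNF family, Tnf, Lta, Ltb and Tnfsf11, and the 6 higher ones were Ifng and the 5 interleukin and growth factor genes. The median log2 difference was 0.29, beside 0 over all genes and −0.01 over those that reached a value of 8, and it was 0.14 with the GC trend removed. At 2-fold 3 genes were higher (Ifng, Il3 and Il10) and 0 were lower, and the 3 lay at 3 different levels with backgrounds of 0.291%, 6.6% and 14.4%. At 1.5-fold 4 were higher, with Csf2 added, and 1 was lower, Ltb, where 9.6% of all genes were higher and 11.4% lower. At 3-fold none of the 10 differed in either direction, beside 2.35% of all genes higher and 3.0% lower.

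**Figure D2:**
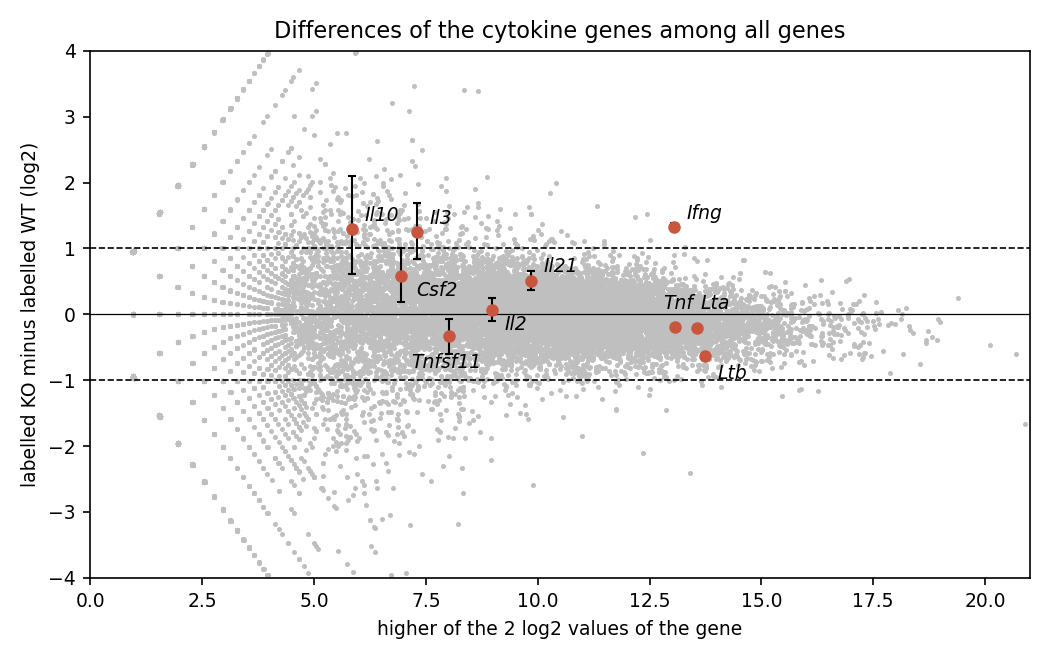
Log2 difference between the library labelled Chi3l1 KO and the library labelled WT (vertical) against the higher of the 2 log2 values of each gene (horizontal), with the 10 cytokine genes in red, their 95% counting intervals as bars, and the other genes above 0 in a library in grey. Dashed lines mark 2-fold, and 83 genes lie beyond the axis limits of −4 and 4. Ifng at 1.32 stands in a region where 0.291% of genes are at least 2-fold higher, while Il10 at 1.30 stands where the grey points are widely spread.

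To compare the genes with one another, the normalized counts were divided by the length of the longest annotated transcript, giving a level per kb. In the library labelled WT the order of levels per kb was Ltb (9582), Lta (8672), Tnf (5272), Ifng (2794), Il2 (419), Il21 (212), Tnfsf11 (115), Il3 (103), Csf2 (102) and Il10 (17.0). The counting intervals of the neighbours Tnfsf11 and Il3, and of Il3 and Csf2, overlapped there. In the library labelled Chi3l1 KO the order was Lta (7523), Ifng (6991), Ltb (6183), Tnf (4595), Il2 (440), Il21 (302), Il3 (248), Csf2 (154), Tnfsf11 (91.4) and Il10 (42.9), where the intervals of Il21 and Il3 overlapped. Ifng stood behind Ltb, Lta and Tnf in the library labelled WT and behind Lta alone in the library labelled Chi3l1 KO.

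The same 4 genes supplied nearly all of the summed level of the 10 genes. Cytokine genes outside the 10 are not in this sum, and Mif alone had a level per kb of 248684 in the library labelled WT and 163502 in the library labelled Chi3l1 KO. Ltb, Lta, Tnf and Ifng held 96.5% of the summed level per kb of the 10 genes in the library labelled WT and 95.2% in the library labelled Chi3l1 KO, and the sum itself was 27287 and 26570. Within that sum the part of Ifng was 10.2% and 26.3%, and the part of the 3 TNF cluster genes was 86.2% and 68.9%. Counted in reads without division by length, Ifng took 8.62% (exact binomial interval 8.35 to 8.90) and 22.8% (22.3 to 23.2) of the reads of the 10 genes.

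**Figure D3:**
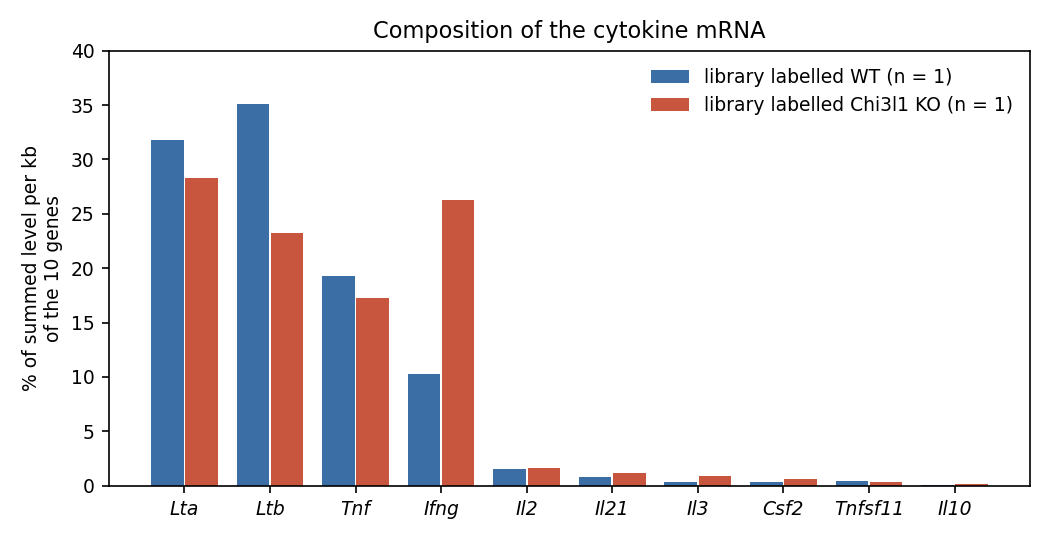
Share of the summed level per kb of the 10 cytokine genes that each gene holds, in percent, in the library labelled WT (blue bars) and the library labelled Chi3l1 KO (red bars), n = 1 each. The bar of Ifng goes from 10.2% to 26.3% and that of Ltb from 35.1% to 23.3%, while those of Lta (31.8% and 28.3%) and Tnf (19.3% and 17.3%) differ less.

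These places depend on the transcript used for Ltb and Il21. The longest annotated transcript of Ltb keeps an intron. With the shortest coding transcript of each gene the level of Ltb was 15002 and 9680 per kb, the highest in both libraries, and Il21, whose annotated transcripts differ mostly in the length of the 3′ UTR, stood above Il2 with 1231 and 1754 per kb. Ifng was then behind the TNF cluster genes in the library labelled WT, and behind Ltb and Lta in the library labelled Chi3l1 KO.

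Ratios between genes of the same library do not change when a library is scaled by 1 factor. They do change with a correction made gene by gene. Removal of the GC trend moved the difference of Ifng from 1.32 to 1.13 and that of Ltb from −0.63 to −0.18. The ratios below are without that correction. Ifng was 0.530 times the level per kb of Tnf in the library labelled WT and 1.52 times in the library labelled Chi3l1 KO. Against Lta the ratio was 0.322 and 0.929, and against Ltb 0.292 and 1.13. By contrast, the ratio of Ifng to Il3 was 27.0 and 28.2, that of Ifng to Il10 was 164 and 163, and that of Tnf to Lta was 0.608 and 0.611. The neighbours Csf2 and Il3 were near 1 to 1 in the library labelled WT (0.986), and Csf2 was 0.620 times Il3 in the library labelled Chi3l1 KO.

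The genes lie at 6 places in the mouse genome (GRCm38). Tnf (chr17:35199381-35202007, minus strand, 4 exons), Lta (chr17:35203165-35205351, minus strand, 4 exons) and Ltb (chr17:35194439-35196320, plus strand, 3 exons) form 1 cluster, with 1.16 kb between Tnf and Lta and 3.06 kb between Ltb and Tnf. Csf2 (chr11:54247271-54249667, minus strand, 4 exons) and Il3 (chr11:54265303-54267277, minus strand, 5 exons) are 15.6 kb apart, and Il2 (chr3:37120523-37125959, minus strand, 4 exons) and Il21 (chr3:37222759-37232636, minus strand, 5 exons) 96.8 kb. Ifng (chr10:118441046-118445892, plus strand, 4 exons), Tnfsf11 (chr14:78277445-78308043, minus strand, 5 exons) and Il10 (chr1:131019845-131024974, plus strand, 5 exons) stand alone, and Il10 lies 3.16 Mb from Chil1 on the same chromosome. Within each of the 3 clusters the members had the same sign, namely lower in the TNF cluster and higher in the other two, with that of Il2 within counting error.

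Reads of overlapping genes could be shared, since the sources used here do not say whether strand was used in counting. Il2 overlaps Adad1 on the opposite strand, which was nearly silent (0.954 and 1.541). Lta and Ltb hold the microRNA genes Mir6974 (9.679 and 9.503) and Mir6973a (9.374 and 8.799) on their own strand. Ifng, Csf2 and Il21 overlap the predicted genes Gm49751, Gm12223 and Gm12534, for which no value was analysed here.

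AU-rich 3′ UTR sites are shown because they are the part of these messages that RNA-binding proteins read to set how long a message lasts. The pentamer ATTTA, written in DNA letters and searched in the strand of the message with overlapping copies counted, was in the annotated 3′ UTR of 9 of the 10 genes, beside 65.4% of the 20736 3′ UTRs of all genes. A denser site, with at least 3 pentamers within 30 bases, was in 4 of the 10, beside 2.55% of all. These 4 sites follow, in the strand of the message with the pentamers in capitals, for Ifng (chr10:118445330-118445359, plus strand), Il2 (chr3:37121040-37121069, minus strand), Tnf (chr17:35199679-35199708, minus strand) and Csf2 (chr11:54247329-54247358, minus strand), from GRCm38.
Ifng 3′ UTR site: aacctATTTAttaatATTTAaaactATTTA
Il2 3′ UTR site: ctATTTATTTAaatATTTAactttaATTTA
Tnf 3′ UTR site: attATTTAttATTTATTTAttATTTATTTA
Csf2 3′ UTR site: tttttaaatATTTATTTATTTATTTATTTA

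Csf2 and Tnf had 5 pentamers each in their site, Il2 4 and Ifng 3. The genes with such a site did not differ in one direction between the libraries, since Ifng was higher (1.32), Csf2 higher (0.59), Il2 near equal (0.07) and Tnf lower (−0.20). Over the whole 3′ UTR there were 9 pentamers in Csf2 and Il21, 8 in Tnf, 7 in Il2, 6 in Ifng, Il10 and Tnfsf11, 3 in Lta, 1 in the short annotated 3′ UTR of Il3 and 0 in that of Ltb, which is 156 bases long. A match of letters is a description and not evidence of binding.

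The genes of proteins that act on such sites were expressed in both libraries. Of the 10 genes listed for cytokine mRNA decay, 0 differed by 2-fold, 5 were higher and 5 lower, with a median log2 difference of −0.11. At 2-fold 4.7% of all genes were higher and 5.81% lower, so 0 of 10 is near the background. Zfp36l1, which encodes a protein that binds AU-rich sites and promotes decay, had the highest level per kb of the list and a value of 13.783 in the library labelled WT and 13.301 in the library labelled Chi3l1 KO. The values of its relatives were 12.148 and 11.765 for Zfp36, and 13.615 and 12.788 for Zfp36l2. The widest differences of the list were −0.83 for Zfp36l2 and 0.62 for Rc3h2, which encodes Roquin-2.

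Promoters are shown for Ifng and Il3, higher by 2-fold, and for Ltb, the lowest of the differences, as 250 bases before the gene start of RefSeq (GRCm38.p6), which had an entry for all members but Il10. The RefSeq start of a gene can differ from the annotation used for the loci above. The Ltb window ends at 35194506, inside the locus that starts at 35194439. The Csf2 window, used in the motif counts below, has its nearer edge at 54249900, away from the locus that ends at 54249667. Capitals mark GGAAA, the core letters recognised by NFAT, on either strand (TTTCC when it lies on the other). The windows are chr10:118440796-118441045 (plus strand) for Ifng, chr11:54267280-54267529 (minus strand) for Il3 and chr17:35194257-35194506 (plus strand) for Ltb.
Ifng promoter: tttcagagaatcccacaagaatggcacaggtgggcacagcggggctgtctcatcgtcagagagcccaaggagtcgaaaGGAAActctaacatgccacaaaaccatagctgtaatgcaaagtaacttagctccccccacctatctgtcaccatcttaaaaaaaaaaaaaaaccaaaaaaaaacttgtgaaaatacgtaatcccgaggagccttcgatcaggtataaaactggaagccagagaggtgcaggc
Il3 promoter: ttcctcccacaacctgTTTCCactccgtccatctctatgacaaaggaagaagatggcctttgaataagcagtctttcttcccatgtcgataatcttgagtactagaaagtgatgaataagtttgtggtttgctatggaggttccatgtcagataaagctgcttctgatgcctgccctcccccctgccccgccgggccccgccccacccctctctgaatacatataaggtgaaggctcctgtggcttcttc
Ltb promoter: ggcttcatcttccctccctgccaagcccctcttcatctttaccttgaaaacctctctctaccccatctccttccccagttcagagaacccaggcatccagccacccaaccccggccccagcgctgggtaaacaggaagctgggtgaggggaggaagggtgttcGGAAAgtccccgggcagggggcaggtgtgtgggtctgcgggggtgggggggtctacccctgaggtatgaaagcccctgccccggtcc

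GGAAA was found in all 9 of the 9 promoters, beside 55.6% of 32851 promoters of this length. TATAAA, the TATA box, was in 5 (Ifng, Il2, Tnf, Lta and Tnfsf11) beside 12.4%, so it occurred in genes that were higher and in genes that were lower. The AP-1 letters TGANTCA were in 0 of 9, beside 6.75% of all, and the T-box letters AGGTGTGA, known from the sites of T-bet, were in 0 of 9 beside 1.12%. Each motif was searched on both strands and overlaps between motifs were not removed.

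Messages of the receptors of these cytokines lay mostly lower in the library labelled Chi3l1 KO. Of 18 receptor genes, 15 had a lower and 3 a higher value, with a median log2 difference of −0.48 (−0.41 with the GC trend removed), beside a median of 0 over all genes. Over the genes above 0 in at least one library, 8395 were lower and 7748 higher. At 2-fold 3 of the 18 were lower and 0 higher, beside 5.81% and 4.7% of all genes. Csf2rb encodes the signalling chain shared by the GM-CSF, IL-3 and IL-5 receptors, and had values of 7.875 (241 reads) and 5.568 (48 reads). Its paralog Csf2rb2, which serves IL-3 alone, had 8.965 (515 reads) and 6.761 (111 reads). Their log2 differences were −2.31 and −2.20, opposite in sign to those of their ligands Il3 and Csf2. The values of these near-identical genes are uncertain singly, because reads that align to both were counted, so they are not separate calls. From 6 to under 8, the level of Csf2rb, 8.02% of genes were at least 2-fold lower. From 8 to under 10, the level of Csf2rb2, the share was 2.51%. The third gene past 2-fold, Ltbr, the lymphotoxin β receptor, had 53 and 12 reads (−2.06) and was named after its value was seen. At its level, from 4 to under 6, 19.3% of genes were at least 2-fold lower.

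Csf2rb is a gene of basophils and mast cells too, and markers of those cells did not all go one way. Of 6 such markers 4 were at least 2-fold lower in the library labelled Chi3l1 KO, beside 5.81% of all genes. They were Prss34 at 7.607 and 5.082, Mcpt8 at 6.383 and 3.859, Cpa3 with only 11 and 5 reads and Fcer1a with 4 and 0. The mast cell and progenitor marker Kit was higher, at 6.887 and 7.508, and Ms4a2 was at 0 in both. The summed normalized count of the 6 markers was 408 and 232. The part of these cells in the receptor values was not tested. In bulk RNA, fewer cells of a type and less RNA per cell cannot be told apart.

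The other receptor chains were closer. The IFNγ receptor genes Ifngr1 and Ifngr2 had log2 differences of −0.39 and −0.85. Il2rg, the common γ chain and the receptor gene with the highest level per kb, was 15.694 and 15.251, Il2rb was 16.596 and 15.930, and Il2ra, the chain that makes the IL-2 receptor high in affinity, was 15.828 and 16.074. The TNF receptor genes Tnfrsf1a and Tnfrsf1b differed by −0.52 and −0.15 and Il21r by −0.04. The 3 receptor genes with a higher value were Il2ra, Il10ra (0.22) and Il10rb (0.48). Tnfrsf11a, the RANKL receptor, had 29 and 19 reads, and the decoy receptor gene Tnfrsf11b 1 read in each library.

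Genes that IFNγ and IL-2 are known to induce showed no common direction. Of 15 IFNγ-induced genes, 0 differed by 2-fold, 8 were higher and 7 lower, and the median log2 difference was 0.04. The ratio of Ifng itself was 2.50. Over all genes 4.7% were at least 2-fold higher and 5.81% lower. The list had median values of 13.4 and 13.1, and from 12 to under 14 those shares were 0.291% and 0.485%. So 0 of 15 is near the background. The chemokine genes Cxcl9 (0.92) and Cxcl10 (0.62) were the highest of the differences, while Ciita (−0.89), the activator of MHC class II genes, and Socs1 (−0.87), an inhibitor of cytokine signalling, were the lowest. Of 8 IL-2-induced genes, a list that includes Lta, 0 differed by 2-fold, 3 were higher and 5 lower. The median was −0.16, which was 0.003 with the GC trend removed. Median values of 13.8 and 13.6 place this list in the same range of level, so 0 of 8 is near the background too. Myc, the highest per kb, was 17.230 and 17.107.

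Among 8 genes of transcription factors that act on Il10 and other cytokine genes, 7 were higher and 1 lower in the library labelled Chi3l1 KO. The median was 0.29, and none differed by 2-fold, beside 4.7% of all genes higher and 5.81% lower. Bhlhe40, a repressor of Il10 and the highest of the list per kb, was 14.487 and 14.565. Prdm1, which encodes Blimp-1, was 8.492 and 9.296, the largest difference of the list at 0.80. Maf, an activator of Il10, had values of 6.382 (85 reads) and 6.965 (128 reads). The exception was Bcl6, at −0.21.

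Cytokine genes beyond the 10 moved in both directions. Of 20 other lymphocyte cytokine genes, 4 were at least 2-fold higher and 5 at least 2-fold lower, beside 4.7% and 5.81% of all genes. The median was −0.04, and most of the genes past 2-fold had few reads. Il24, a relative of Il10, was 6.001 (65 reads) in the library labelled WT and 7.338 (166 reads) in the library labelled Chi3l1 KO. Spp1, which encodes osteopontin, was 8.060 (274 reads) and 6.885 (121 reads). Mif, the highest per kb, was 17.187 and 16.582. The others past 2-fold, named after their values were seen, were Il4, Il5 and Il17f among the higher and Il22, Il6, Il15 and Il27 among the lower, each with 13 reads or fewer in both libraries.

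Of 12 other ligands of the TNF family, 3 were at least 2-fold higher and 2 at least 2-fold lower. Over all genes these shares were 4.7% and 5.81%. The median of the 12 was −0.06. Tnfsf4, which encodes OX40 ligand, was 5.911 (61 reads) and 7.258 (157 reads). Tnfsf10, which encodes the death ligand TRAIL, was 8.054 (273 reads) and 9.065 (553 reads), a log2 difference of 1.01 that was 0.82 with the GC trend removed. Cd40lg, the highest per kb, was 11.056 and 11.362. So the TNF family ligands beyond Tnf, Lta, Ltb and Tnfsf11 did not all lie lower. The remaining ligands past 2-fold, named after their values were seen, were Tnfsf15 (1 and 5 reads), Cd70 (15 and 7 reads) and Tnfsf13b (3 and 0 reads). Over the 7 lists together, 88 genes without the members, 7 were at least 2-fold higher and 10 at least 2-fold lower, with a median of −0.12. The shares over all genes were 4.7% and 5.81%.

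**Figure D4:**
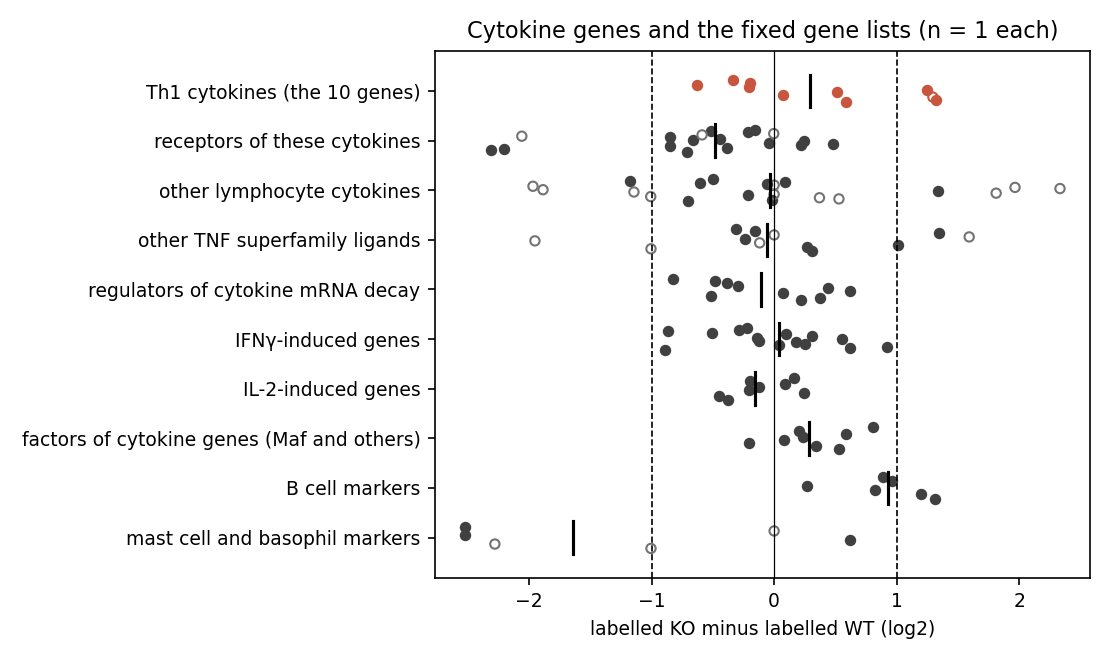
Log2 difference between the library labelled Chi3l1 KO and the library labelled WT (n = 1 each) for each gene of the 10 cytokines, the 7 related lists and the B cell and mast cell and basophil markers, with open symbols for genes under a log2 value of 6 in both libraries, black bars for the medians and dashed lines at 2-fold. The receptors center on a median of −0.48 and the IFNγ-induced genes on 0.04, while all 6 B cell markers lie above 0.

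Markers of other cells that can make or share these cytokines also differed. All 6 B cell markers were higher in the library labelled Chi3l1 KO, by 0.27 to 1.32, with a summed normalized count of 1636 and 3330. Of these 6, 2 were past 2-fold, beside 4.7% of all genes. B cells can express Ltb, Tnf and Il10. Of the 5 NK cell markers, whose cells are a source of IFNγ, 2 were at least 2-fold higher. They were Ncr1 with 0 and 6 reads and Klra8 with 11 and 39 reads. At the level of Klra8, from 4 to under 6, 14.4% of genes were at least 2-fold higher. Klrb1c (NK1.1) had 17 and 9 reads, and Klra4 was at 0 in both. The sum of the 5 markers, 2073 and 2703, was almost all Eomes, a gene that T cells express as well. The CD8 T cell genes Cd8a and Cd8b1 differed by 0.60 and −0.47, with sums of 812 and 807. Before culture, naïve CD4 T cells were isolated with magnetic beads or by flow sorting, a step meant to remove B, NK, CD8 T and myeloid cells, and the methods do not say which was used for the sequenced cultures. The part of B, NK and CD8 T cells in the cytokine values was not tested.

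Markers of CD4 subsets other than Th1 had mostly higher values in the library labelled Chi3l1 KO. Of 5 regulatory T cell markers, 4 were higher and none by 2-fold, with Foxp3 at 10.939 and 11.663 and a sum of 77912 and 92010. Of 5 Th2 markers 2 were at least 2-fold higher, Il4 with 1 and 9 reads and Il5 with 0 and 3, while Gata3 was lower, at 11.816 and 11.178. Of 5 Th17 markers 3 were at least 2-fold higher, Il17f with 3 and 13 reads, Il23r with 5 and 14 and Ccr6 with 42 and 124. The counting intervals of Il5 and Il23r included equal levels. At 2-fold 4.7% of all genes were higher, and 14.4% of those from 4 to under 6. Neutrophil markers had a sum of 80.3 and 4.79, with 5 of the 6 in the table at least 2-fold lower. Macrophage markers summed to 687 and 578, with 1 of 7 past 2-fold higher and 2 lower, and dendritic cell markers to 73.6 and 122, with 3 of 6 higher and 1 lower. The neutrophil, macrophage and dendritic cell genes past 2-fold had 68 reads or fewer in either library. At 2-fold 5.81% of all genes were lower, and 19.3% of those from 4 to under 6. The part of the cells in this paragraph in the levels of Il10, Il21, Tnf and the myeloid growth factor genes was not tested.

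The differences of the 10 genes were recomputed under 8 other scalings or treatments of low values. Of the 10 genes, 9 kept their sign under all of them, and the exception was Il2. Ifng ranged from 1.13 to 1.49, Il3 from 1.18 to 1.42 and Il10 from 1.14 to 1.45, past 2-fold throughout. Ltb ranged from −0.63 to −0.18, Lta from −0.21 to −0.01 and Tnf from −0.20 to −0.03, so the size of the TNF cluster differences rests on the scaling. Csf2 ranged from 0.45 to 0.75, Il21 from 0.28 to 0.68 and Tnfsf11 from −0.47 to −0.17.

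**Figure D5:**
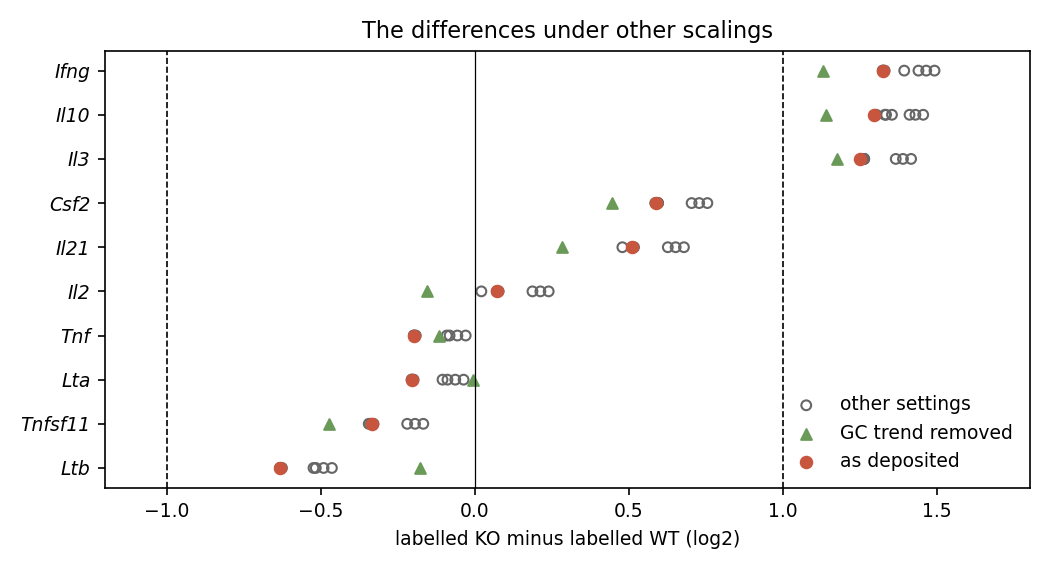
Log2 difference of each cytokine gene between the library labelled Chi3l1 KO and the library labelled WT as deposited (red), with the GC trend removed (green triangles) and under the other settings (open circles), with dashed lines at 2-fold. Ifng, Il3 and Il10 stay above 1 in every setting, and the triangle of Ltb lies at −0.18 beside −0.63 as deposited.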

How the data were processed

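Polyadenylated RNA of 1 WT and 1 Chi3l1 KO Th1 culture was sequenced from both ends. Per the methods and the submitters' processing notes, the authors mapped reads with TopHat (mm10) and counted unique and multiple alignments for edgeR, with a global normalization. The deposited unit, taken here as log2(normalized count + 1), is not named in the sources used here and comes from the values themselves. After the log2 was undone, 99.9% of values under 60 in the library labelled WT and 100% (rounded) in the other lay within 0.1 read of a whole multiple of 0.969 or 0.9675, the worth of 1 read. On this scale 3 reads are worth 1.97 or 1.96. Reads were rebuilt with these steps.

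The difference was the deposited value of the library labelled Chi3l1 KO minus that of the library labelled WT, and 2-fold was the threshold for a count. With 1 sample per genotype no p-value was computed. Intervals were exact Poisson and exact binomial (Clopper-Pearson, 95%) and cover counting error only. Gene models were from GENCODE M21 (GRCm38) and promoters from RefSeq. The GC trend was the median difference in 20 bins over 8579 genes at 8 or more in both libraries. Alternatives were pseudocounts, median-ratio, quantile, Actb and per-million scaling, the GC trend, other thresholds, a floor on the value and other transcript lengths. Per-million scaling without Rn45s was added after seeing the data.

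The named genes were the 10 members, Chil1, Actb, the genes of the 7 related lists past 2-fold with a value of at least 6 in a library, and the highest gene per kb of each list, of which 1 is not reported here. Other named genes were list or marker genes given as examples. The members and lists were chosen with earlier results of these data known. The scripts were tested on simulated data. Tools were pandas 2.3.3, numpy 2.4.6, matplotlib 3.10.9 and scipy 1.17.1 under Python 3.11.15.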

Additional observations from a re-analysis of the deposited data

How the results depend on the processing

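No paired analysis was possible because each genotype has 1 sample and the labels carry no replicate numbers, and for the same reason no sample could be left out. Of 80 recomputed member values, 23 lay outside the counting interval of the deposited value, and the sign turned only for Il2 with the GC trend removed (−0.16). At 3-fold 0 members were higher, and at 1.5-fold 1 was lower. In the 7 lists, 11 genes were higher and 20 lower at 1.5-fold, and 4 and 6 at 3-fold, beside 7 and 10 at 2-fold. Over all genes 2345 were higher and 2795 lower at 1.5-fold, 573 and 733 at 3-fold, and 80 and 116 at 2-fold among genes that reached a value of 8, beside 1147 and 1418. With the shortest coding transcript the log2 range of levels per kb was 9.78 in the library labelled WT and 7.82 in the library labelled Chi3l1 KO (9.14 and 7.46 with the longest), and the share of Ifng 8.13% and 21.8%. Without division by length it was 22.8% in the library labelled Chi3l1 KO (26.3% per kb). Scaling moved the median over genes above 0 in both libraries by 0.12 (Actb), 0.17 (CPM of the reads) and 0.14 (CPM without Rn45s), beside deposited differences of −0.20 for Tnf and −0.21 for Lta.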
